A study of Homo sapiens with 9 samples.

Results

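The comparison described here set ZR-75-1 cells transfected with a mimic of miR-150-5p against ZR-75-1 cells transfected with a negative control RNA. It compares 6 of the 9 arrays of the series, the 3 titled as mimic and the 3 titled as NC. ZR-75-1 is an established breast cancer line that expresses the estrogen receptor, grown here in RPMI-1640 with 10% fetal bovine serum. Both groups received 50 nM RNA in Lipofectamine RNAiMAX, either the mature miR-150-5p mimic or a non-specific RNA from the same supplier, had their medium replaced at 24 h and were harvested at 48 h. The remaining 3 arrays are mock cells given the lipid without RNA, and all 9 samples come from this 1 line. The mock arrays enter the fit through the shared estimate of the spread, so every p-value depends on them too. Total RNA was taken up in Trizol, labelled with a FlashTag biotin kit and hybridised to Affymetrix Human Gene 2.0 ST arrays, 1 sample per array. The transfections were done in triplicate, and nothing in the labels says that they were independent experiments, so every p-value here measures only how these samples spread, which may in part be technical.

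A microRNA is a short RNA that guides an Argonaute protein to partly complementary sites, mostly in the 3′ untranslated regions of messenger RNAs, where pairing of its seed (bases 2 to 8) usually lowers the level or the translation of the target. A mimic is a synthetic duplex that supplies the mature strand directly, and the RNA of a transfected culture can differ both in direct targets and in genes that respond to them, in either direction. miR-150-5p is best known from lymphocytes, where it restrains the transcription factor MYB, and it is low in many epithelial cells. The values are log2 intensities, so a difference of 1 between groups is a doubling.

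The labelled cell type was checked against its markers in the negative control. Epithelial and luminal genes were bright, with mean log2 intensities of 12.07 for KRT18, 11.26 for KRT19, 10.33 for EPCAM, 9.90 for GATA3, 8.80 for FOXA1 and 8.55 for ESR1. Some markers of other cell types were dim, at 2.67 for the basal keratin KRT5, 4.56 for KRT14, 2.73 for the endothelial gene PECAM1 and 3.53 for VWF. Not all were: OXTR, on the basal list, had a mean above the median of all genes in at least 1 group. Levels of the other markers are not given. None of the 9 basal, 4 fibroblast, 7 leukocyte and 8 endothelial markers measured passed the test between mimic and negative control. Their lowest p-values were those of OXTR (0.37), FBN1 (0.13), CSF1R (0.21) and PECAM1 (0.47), given as log2 changes, and 1, 0, 1 and 2 members of the 4 lists had an unadjusted p under 0.05. On the first principal component of the 6 arrays, with 33.1% of the variance, the negative control lay between -12.43 and -8.14 and the mimic at 13.74, 4.90 and 13.02, so mimic replicate 2 was the nearest to the control. The second component, with 26.2%, held mimic replicates 1 and 3 apart at 16.23 and -17.03. The probeset of the MIR150 gene read 4.17, 3.93 and 4.17 in the negative control and 4.47, 3.96 and 4.17 with the mimic, which overlap. The sources used here do not say whether it detects the mimic, so it is no check of delivery.

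Of 14884 genes tested with limma over all 9 arrays, 82 (0.551%) passed an adjusted p of 0.05, the threshold for every call in this text. Of all genes, 0.202% (30) were higher and 0.349% (52) lower with the mimic. With the 6 mimic and negative control arrays fitted alone, 8 genes passed. Among the 82, falls were the larger changes: 7 falls and 1 rise reached 1 log2 unit, 27 falls and 20 rises lay between 0.5 and 1, and 18 falls and 9 rises were smaller. Without adjustment 1871 genes had a p under 0.05. The arrays of the 2 groups did not overlap in 2445 genes, 16.4% of those tested, so a lack of overlap alone is common here. The median log2 change over all genes was 0.01, and 53.4% of genes had a positive change. Protein-coding genes supplied 73 of the 82 calls, 24 up and 49 down, microRNA genes 5 and long non-coding RNAs 4. Calls were concentrated among bright probesets: 75 came from the genes above the median mean intensity (5.44), or 1.01% of them, and 7 from those at or below it, or 0.0941%. The genes that passed are grouped below by what they are known to do, after their values were seen. Counts with a number of measured genes refer to gene lists, and a group without one has no share to set against the 0.551%. A listed gene is measured only where a probeset carries its name here, so many lists are incomplete surveys of a pathway.

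**Figure D1:**
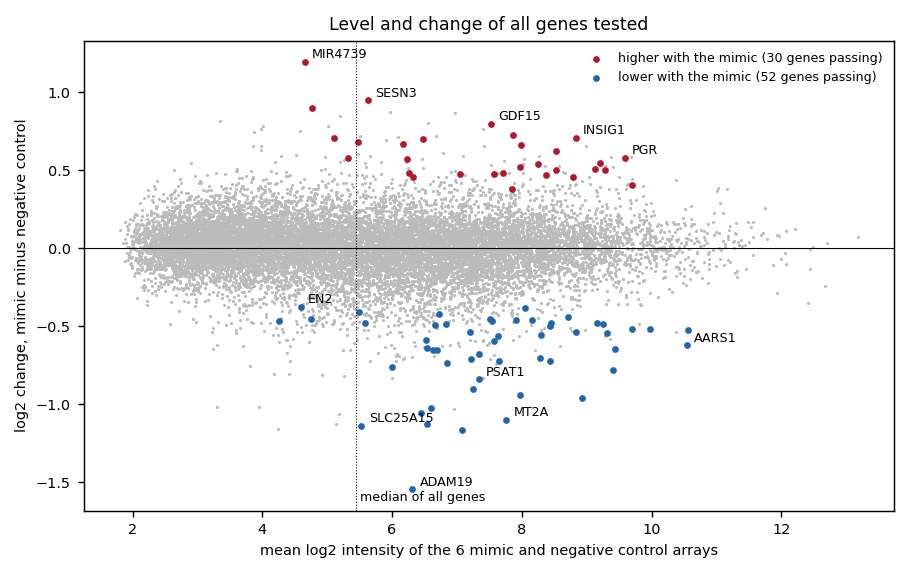
Each point is 1 of 14884 genes, with its mean log2 intensity over the 6 mimic and negative control arrays on the horizontal axis and its log2 change, mimic minus negative control, on the vertical axis. Red points are the 30 genes that passed and were higher, blue points the 52 that passed and were lower, and the dotted line marks the median intensity; ADAM19 at -1.54 is the lowest and MIR4739 at 1.19 the highest point that passed.

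Sequences are shown for 2 groups, microRNA genes that passed and promoters of genes that respond to amino acid supply and to metals. For the microRNA genes that rose, these are the mature RefSeq sequences (GRCh38.p14), 5′ to 3′ with the seed in capitals, shown because each seed would define its own set of possible targets.
hsa-miR-4739: aAGGGAGGaggagcggaggggcccu
hsa-miR-548f-3p: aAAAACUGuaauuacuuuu
hsa-miR-604: aGGCUGCGgaauucaggac
hsa-miR-23b-5p: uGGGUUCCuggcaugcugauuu
hsa-miR-23b-3p: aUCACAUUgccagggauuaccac
The 5 seeds are all different, so these genes form no family by seed. MIR4739 lies at chr17:79707216-79707240 (minus strand), MIR548F2 at chr2:212426284-212426302 (minus strand), MIR604 at chr10:29545019-29545037 (minus strand), and the 2 arms of MIR23B at chr9:95085227-95085248 and chr9:95085265-95085287 (plus strand), positions of the mature RNAs in GRCh38.p14.

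Cells short of an amino acid raise the transcription factor ATF4, which binds composite elements with the core TGATGNAA in its targets, among them many aminoacyl-tRNA synthetases, and metallothionein promoters carry metal response elements with the core TGCNCNC, bound by MTF1. The following are the 250 bases before the RefSeq start site (GRCh38.p14), 5′ to 3′ along the gene, with matches to these letters on either strand in capitals: TGATGNAA in AARS1, ASNS and IARS1, and TGCNCNC in MT2A.
AARS1 (chr16:70289507-70289756, minus strand): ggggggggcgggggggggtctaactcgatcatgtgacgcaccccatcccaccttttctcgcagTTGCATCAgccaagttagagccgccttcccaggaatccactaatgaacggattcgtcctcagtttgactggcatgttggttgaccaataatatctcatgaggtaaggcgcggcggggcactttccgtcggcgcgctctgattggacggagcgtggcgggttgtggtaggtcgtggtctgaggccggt
ASNS (chr7:97872409-97872658, minus strand): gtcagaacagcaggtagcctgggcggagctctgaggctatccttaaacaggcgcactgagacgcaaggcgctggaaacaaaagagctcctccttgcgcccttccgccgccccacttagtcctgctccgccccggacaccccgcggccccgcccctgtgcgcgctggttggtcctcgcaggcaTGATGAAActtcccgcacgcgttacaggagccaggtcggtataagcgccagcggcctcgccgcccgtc
IARS1 (chr9:92293698-92293947, minus strand): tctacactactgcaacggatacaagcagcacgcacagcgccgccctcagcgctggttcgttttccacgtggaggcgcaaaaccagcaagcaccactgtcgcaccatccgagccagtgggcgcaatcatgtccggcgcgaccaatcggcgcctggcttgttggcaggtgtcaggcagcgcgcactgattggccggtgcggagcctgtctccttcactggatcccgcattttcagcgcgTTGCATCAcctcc
MT2A (chr16:56608334-56608583, plus strand): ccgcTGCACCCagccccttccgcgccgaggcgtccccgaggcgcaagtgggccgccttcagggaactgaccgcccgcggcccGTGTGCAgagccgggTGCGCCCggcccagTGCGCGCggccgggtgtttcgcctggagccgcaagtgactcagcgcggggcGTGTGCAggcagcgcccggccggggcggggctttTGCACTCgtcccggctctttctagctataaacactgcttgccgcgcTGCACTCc
The match began 187 bases before the start of AARS1, 68 before that of ASNS and 13 before that of IARS1. Over windows of 300 bases (250 before to 50 after the start), TGATGNAA was found in 3.67% of 27305 promoters. On the aminoacyl-tRNA synthetase list 6 of the 15 genes with a promoter in the table held it: AARS1, CARS1, IARS1, MARS1, NARS1 and TARS1. Among the genes that passed, 1 of 42 lower genes with a promoter (AARS1) and 0 of 24 higher ones held it, against 2.24% of the genes tested. Of the promoters shown, those of ASNS and IARS1 belong to genes that did not pass. TGCNCNC was found in 55.2% of all promoters, with a median of 1 match, so a single match says little, but MT2A held 8 in its window, 7 of them in the stretch shown, and 0.0879% of promoters (24) held as many. A sterol response core, TCACNCCAC, was in 1.15% of promoters and in none of the 66 genes that passed and had a promoter in the table, and the palindromic estrogen response element was in 0.0659% and likewise in none of the 66. The motifs were searched separately, so matches to different motifs may share bases. A match describes letters in a window, not a site in use.

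All 3 enzymes of serine synthesis fell. PHGDH, PSAT1 and PSPH catalyse its 3 consecutive steps from the glycolytic intermediate 3-phosphoglycerate, and the serine they make feeds glycine, one-carbon units and glutathione. PHGDH, the first and committed enzyme, read 8.02, 8.05 and 7.94 on negative control replicates 1 to 3 and 7.24, 7.14 and 7.47 on mimic replicates 1 to 3, a log2 change of -0.72 ± 0.09 (limma's moderated SE, n = 3 per group) with an adjusted p = 0.0153. PSAT1, the aminotransferase of the second step, read 7.68, 7.95 and 7.66 in the negative control and 6.85, 6.90 and 7.02 with the mimic, in the same order of replicates, a log2 change of -0.84 ± 0.10 (adjusted p = 0.0118). PSPH, the phosphatase of the last step, read 6.95, 6.85 and 7.00 in the negative control and 6.46, 6.58 and 6.50 with the mimic, a log2 change of -0.42 ± 0.07 (adjusted p = 0.0401). In each of the 3, every mimic array lay below every negative control array and the gap between the groups was wider than the spread within either. Against mock the changes were -0.70 for PHGDH (adjusted p = 0.0224), -0.66 for PSAT1 (0.0359) and -0.39 for PSPH (0.0721), the last above the threshold. The calls rest on all arrays: with each of the 9 arrays left out in turn PSAT1 passed in 7 of the 9 fits (highest adjusted p = 0.0601, without mimic replicate 1), PHGDH in 4 (0.0784, without negative control replicate 1) and PSPH in 1 (0.172, without negative control replicate 3).

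Around these 3 enzymes the wider pathway moved less. Of 25 listed genes of serine, glycine and one-carbon metabolism, 17 were measured. Among these 17, 3 fell and 0 rose (17.6% called), with a median log2 change of -0.11 against 0.01 over all genes. Relative to the negative control mean, the mean log2 level of the list was -0.36, -0.25 and -0.10 on mimic replicates 1 to 3 and -0.07, -0.07 and -0.07 on the mock arrays, so mimic replicate 3 lay close to mock. The median was -0.06 without negative control replicate 1. CTH, which makes cysteine from cystathionine, had the largest negative value, -1.16, and GLDC, the glycine decarboxylase, -0.64, but neither passed (adjusted p = 0.0963 and 0.0681). The list of ATF4-driven amino acid stress genes shares PHGDH, PSAT1 and PSPH. Of its 22 measured genes (40 listed), 3 fell and 1, GDF15, rose, and 17 had negative values. ASNS, the asparagine synthetase whose promoter is shown above, read 6.44, 7.06 and 6.46 in the negative control and 5.71, 5.87 and 6.29 with the mimic, lower on every mimic array (-0.70) but not past the threshold (adjusted p = 0.154). The ATF4 transcript itself stood at 0.05 (adjusted p = 0.822).

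AARS1, the alanyl-tRNA synthetase that charges tRNA with alanine, read 10.86, 10.92 and 10.78 in the negative control and 10.18, 10.31 and 10.20 with the mimic, a log2 change of -0.62 ± 0.07 (adjusted p = 0.0107) and of -0.61 against mock (0.0212). The groups were tight and far apart. It was the only 1 of 18 measured genes on the aminoacyl-tRNA synthetase list to pass, but 17 of the 18 had a negative change, with a median of -0.10. The list also holds AIMP1, which is not itself a synthetase. Mimic replicate 1 was the lowest for the list: its mean log2 level, relative to the negative control mean, was -0.29, -0.12 and -0.05 on mimic replicates 1 to 3 and -0.01, 0.00 and 0.01 on mock, and the median change was -0.04 without mimic replicate 1. Next came YARS1 for tyrosine at -0.46 (adjusted p = 0.0594) and IARS1 for isoleucine at -0.36 (0.121), which did not pass, and QARS1 for glutamine, at 0.16, was the positive one. AARS1 passed in 6 of the 9 fits that left out an array (highest adjusted p = 0.0585, without mimic replicate 1).

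Other genes of amino acid handling changed alongside. SLC25A15, the carrier that brings ornithine into mitochondria for the urea cycle, read 5.87, 6.13 and 6.30 in the negative control and 4.85, 5.23 and 4.80 with the mimic, a log2 change of -1.14 ± 0.14 (adjusted p = 0.0168), the third largest fall. It was the 1 of 23 genes of proline, ornithine, arginine and polyamine metabolism to pass, and the list's median change was 0.03. BZW2, a regulator of start-codon choice in translation, changed by -0.50, and PLPBP, which binds the vitamin B6 cofactor used by aminotransferases, by -0.49, which passed in 0 of the 9 fits that left out an array. SESN3 went the other way: this sestrin, a stress-induced restraint on the growth kinase mTORC1, read 5.25, 4.93 and 5.30 in the negative control and 6.08, 6.13 and 6.12 with the mimic, a log2 change of 0.95 ± 0.10 (adjusted p = 0.0106). It was the largest rise among protein-coding genes, the 3 mimic arrays nearly coincided, and it was 0.84 above mock (adjusted p = 0.0224). No other of the 29 measured genes of mTORC1 regulation passed, nor any other of 15 FOXO factors and targets, a list that also holds SESN3. SESN3 passed in 8 of the 9 fits that left out an array and SLC25A15 in 5 (highest adjusted p = 0.0585 and 0.0756).

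**Figure D2:**
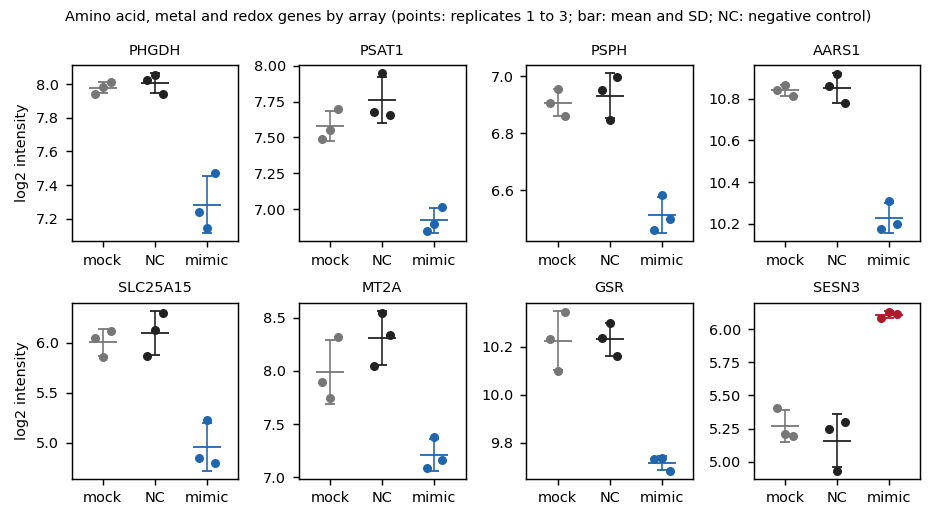
The log2 intensity (vertical axis) of 8 genes that passed is plotted for mock, negative control (NC) and mimic arrays, with replicates 1 to 3 as points and the group mean and SD as bars. In all 8 the 3 mimic arrays lie clear of the other 6, below them for PHGDH, PSAT1, PSPH, AARS1, SLC25A15, MT2A and GSR and above them for SESN3.

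Among metal and redox genes 2 fell and 1 rose. MT2A, a small cysteine-rich protein that binds zinc and copper, read 8.04, 8.54 and 8.34 in the negative control and 7.09, 7.38 and 7.17 with the mimic, a log2 change of -1.10 ± 0.17 (adjusted p = 0.0308) and -0.78 against mock, where it did not pass (0.129). Negative control replicate 2 was the highest and the groups did not overlap. Among 10 measured metallothioneins it was the 1 that passed, with 8 negative values and a median of -0.21. MT1X at -1.03 (adjusted p = 0.154) and MT1F at -0.62 (0.0509) did not pass. The family is nearly identical in sequence, so these probesets may share signal. GSR, which regenerates reduced glutathione, read 10.24, 10.30 and 10.16 in the negative control and 9.73, 9.74 and 9.68 with the mimic, a log2 change of -0.52 ± 0.08 (adjusted p = 0.0313), the 1 called of 25 antioxidant genes (median -0.07). GSTM1, a glutathione transferase that conjugates drugs and carcinogens, was higher, at 4.68, 4.74 and 4.84 in the negative control and 5.73, 5.26 and 5.40 with the mimic, a log2 change of 0.71 ± 0.12 (adjusted p = 0.0401). Its probeset is dim: the negative control mean, 4.75, lay under the median of all genes (5.44), and the mimic mean was 5.46. Against mock the change of GSTM1, 0.71, did not pass (0.054). It too has close paralogs, and none of the other 20 measured glutathione transferases passed. MT2A, GSR and GSTM1 passed in 2, 2 and 1 of the 9 fits without 1 array, with highest adjusted p = 0.135, 0.119 and 0.149.

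Genes of the estrogen receptor axis and luminal identity gave 4 rises and 1 fall. ESR1, the estrogen receptor alpha gene that defines this line, read 8.50, 8.52 and 8.64 in the negative control and 9.04, 9.02 and 8.98 with the mimic, a log2 change of 0.46 ± 0.07 (adjusted p = 0.0295). PGR encodes the progesterone receptor, a well-known estrogen target, and read 9.24, 9.45 and 9.21 in the negative control and 9.84, 9.91 and 9.88 with the mimic, a log2 change of 0.58 ± 0.08 (adjusted p = 0.02). BCL2, an inhibitor of apoptosis that estrogen raises in breast cells, read 9.55, 9.51 and 9.45 in the negative control and 9.98, 9.90 and 9.85 with the mimic, a log2 change of 0.40 ± 0.07 (adjusted p = 0.0396). In all 3 the mimic arrays stood above both control groups, and mock lay beside the negative control: ESR1 was 0.45 above mock (adjusted p = 0.0406), PGR 0.64 (0.0224) and BCL2 0.37 (0.0767). TOX3, an HMG-box protein found in luminal breast cells, rose by 0.48, from 7.38, 7.45 and 7.55 to 7.89, 7.86 and 8.09. Its mock arrays, at 7.64, 7.65 and 7.69, lay between the groups, and the change against mock, 0.29, did not pass (adjusted p = 0.231). CA12, a membrane carbonic anhydrase and another estrogen target, fell instead, from 10.06, 9.85 and 9.96 to 9.56, 9.48 and 9.28, a log2 change of -0.52 ± 0.09 (adjusted p = 0.0427).

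Over the 29 measured estrogen-induced genes, PGR rose and CA12 fell, 24 had positive values, and the median log2 change was 0.17 against 0.01 over all genes. In 14 of them the mimic arrays lay above the negative control arrays without overlap and in 2 below, where 16.4% of all genes were separated in one direction or the other. SIAH2 at 0.38 (adjusted p = 0.052), GREB1 at 0.37 (0.0541), NRIP1 at 0.49 (0.0541) and CXCL12 at 0.72 (0.0681) came next and did not pass. Relative to the negative control mean, the mean log2 level of the list was 0.22, 0.17 and 0.21 on mimic replicates 1 to 3 and between -0.03 and 0.03 on the 6 control arrays. Of 19 measured genes on the list of luminal factors and receptors, ESR1 and BCL2 rose and none fell. BCL2 is on that list but is neither a luminal transcription factor nor a receptor. Of 11 nuclear receptors ESR1 and PGR rose. The lists overlap: ESR1 is on both of these and PGR is also on the estrogen-induced list, so their counts are not separate results. The single calls were sensitive to the arrays used: ESR1 passed in 1 of the 9 fits without 1 array, PGR in 3, BCL2 in 1, TOX3 in 1 and CA12 in 0 (highest adjusted p = 0.119, 0.0965, 0.168, 0.147 and 0.168).

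**Figure D3:**
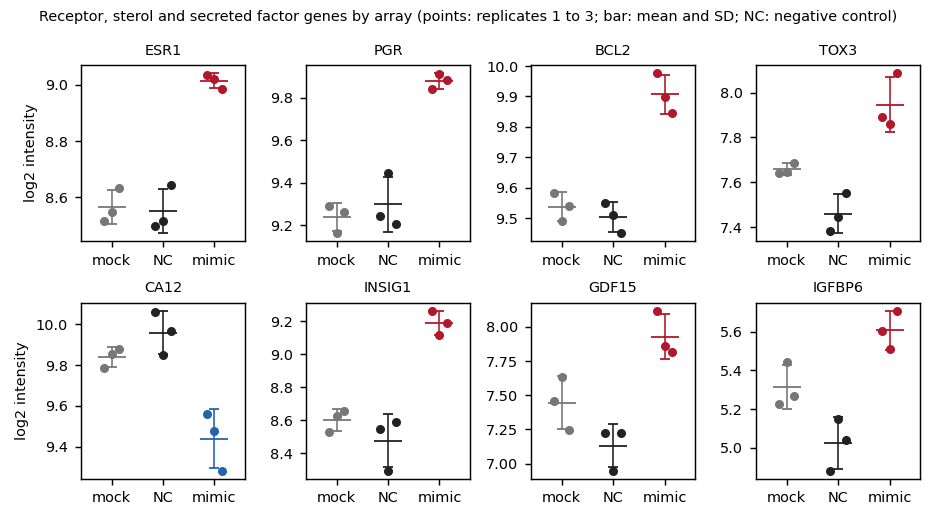
Log2 intensity (vertical axis) of ESR1, PGR, BCL2, TOX3, CA12, INSIG1, GDF15 and IGFBP6 on mock, negative control (NC) and mimic arrays, with replicates 1 to 3 as points and the mean and SD as bars. The mimic points lie above both control groups in 7 genes and below them in CA12, and in TOX3, GDF15 and IGFBP6 mock lies between the negative control and the mimic.

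Sterol and lipid genes changed in both directions. INSIG1, the endoplasmic reticulum protein that holds back SREBP activation and speeds decay of HMG-CoA reductase, read 8.55, 8.30 and 8.59 in the negative control and 9.26, 9.12 and 9.19 with the mimic, a log2 change of 0.71 ± 0.09 (adjusted p = 0.0172). PMVK, the phosphomevalonate kinase of the cholesterol pathway, fell by 0.45, with 7.77, 7.72 and 7.69 in the negative control and 7.25, 7.27 and 7.31 with the mimic (adjusted p = 0.02). These were the 2 calls among 21 cholesterol genes, of which 16 had positive values (median 0.10). PCTP, which carries phosphatidylcholine between membranes, read 7.02, 6.66 and 6.78 in the negative control and 6.24, 6.29 and 6.17 with the mimic, a log2 change of -0.59 ± 0.09 (adjusted p = 0.0338). HADH, the mitochondrial dehydrogenase of the third step of beta-oxidation, read 7.45, 7.48 and 7.48 in the negative control and 6.78, 6.96 and 7.05 with the mimic, a log2 change of -0.54 ± 0.08 (adjusted p = 0.0277), and was the 1 call among 9 fatty acid oxidation genes, 7 of them negative. The mean log2 level of that list, relative to the negative control mean, was -0.22, -0.14 and -0.08 on mimic replicates 1 to 3 and -0.02, -0.14 and -0.07 on mock replicates 1 to 3, which overlap. ICMT, which methylates the prenylated ends of Ras and related proteins, fell by 0.48. None of 27 genes of fatty acid synthesis and lipid storage passed (6 with an unadjusted p under 0.05), the nearest being ACSL4 at -0.48 (adjusted p = 0.0845). INSIG1 passed in 3, PMVK in 3, PCTP in 1 and HADH in 2 of the 9 fits without 1 array (highest adjusted p = 0.069, 0.0916, 0.134 and 0.126).

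Secreted or shed signalling factors of stress, vascular and growth factor pathways were among the rises. GDF15, a stress-induced cytokine of the TGF-beta superfamily, read 7.22, 6.95 and 7.22 in the negative control and 8.11, 7.86 and 7.82 with the mimic, a log2 change of 0.80 ± 0.13 (adjusted p = 0.0329). Mock lay between the groups for GDF15, at 7.46, 7.63 and 7.24, and the change against mock, 0.48, did not pass (0.197). EDN1, the vasoconstrictor peptide endothelin-1, read 7.81, 7.63 and 7.54 in the negative control and 8.53, 8.25 and 8.19 with the mimic, a log2 change of 0.66 ± 0.11 (adjusted p = 0.0417), and was 0.72 above mock (0.0429). In 3 members of a list of the insulin-like growth factor axis and related genes the direction was the same. KL, which encodes klotho, a co-receptor for endocrine fibroblast growth factors with a circulating form that dampens insulin signalling, read 5.79, 5.73 and 6.01 in the negative control and 6.53, 6.58 and 6.42 with the mimic, a log2 change of 0.67 ± 0.09 (adjusted p = 0.0172). IGFBP6, a binding protein with a preference for IGF2, read 4.88, 5.15 and 5.04 in the negative control and 5.61, 5.51 and 5.71 with the mimic, a log2 change of 0.58 ± 0.09 (adjusted p = 0.0379). INSL4, a relaxin-family peptide of the placenta, read 8.13, 8.23 and 8.29 in the negative control and 8.99, 8.80 and 8.74 with the mimic, a log2 change of 0.63 ± 0.11 (adjusted p = 0.0491). Those were the 3 rises among 28 measured members of the list, with 0 falls and a median of 0.10. Of the 3, only IGFBP6 binds an insulin-like growth factor by the descriptions given here. KL and IGFBP6 did not pass against mock (0.41 and 0.29, adjusted p = 0.116 and 0.305), whereas INSL4 did (0.70, 0.0465).

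Receptors and signalling proteins changed in both directions. NPR3, the receptor that clears natriuretic peptides from the circulation, read 7.20, 7.03 and 7.12 in the negative control and 5.98, 6.16 and 6.14 with the mimic, a log2 change of -1.02 ± 0.11 (adjusted p = 0.00819) and -0.94 against mock (0.0212). With EDN1 it gave 1 fall and 1 rise among 35 vasoactive peptides and receptors. ADRA2A, the alpha-2A adrenergic receptor, read 7.57, 7.79 and 7.76 in the negative control and 8.22, 8.24 and 8.22 with the mimic, a log2 change of 0.52 ± 0.08 (adjusted p = 0.0246). OPN3, a non-visual opsin, read 7.58, 7.31 and 7.60 in the negative control and 8.38, 8.03 and 8.27 with the mimic, a log2 change of 0.73 ± 0.12 (adjusted p = 0.0416). Its change against mock, 0.53, did not pass (0.159). ADRA2A and OPN3 were the rises among 149 G protein-coupled receptors, where none fell. RALGPS2, an exchange factor for Ral GTPases, read 8.92, 8.96 and 8.92 in the negative control and 9.45, 9.46 and 9.51 with the mimic, a log2 change of 0.54 ± 0.07 (adjusted p = 0.0138). RRAS, a Ras-family GTPase that promotes integrin adhesion, read 9.49, 9.59 and 9.70 in the negative control and 9.03, 9.03 and 9.09 with the mimic, a log2 change of -0.54 ± 0.07 (adjusted p = 0.0192). DUSP16, a phosphatase of the stress kinases JNK and p38, rose by 0.47 and by 0.50 over mock, the 1 call among 60 MAP kinases and phosphatases. NPR3 passed in 8 of the 9 fits without 1 array, RALGPS2 in 4, RRAS in 5, ADRA2A in 2, OPN3 in 1, GDF15 in 2, EDN1 in 1, KL in 5, IGFBP6 in 1 and INSL4 in 1.

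Cell-surface, adhesion and matrix genes held the largest change among named genes that passed. ADAM19, a membrane-anchored metalloprotease that sheds growth factors and other surface proteins, read 7.11, 6.89 and 7.25 in the negative control and 5.45, 5.56 and 5.61 with the mimic, a log2 change of -1.54 ± 0.10 or 2.92-fold lower (adjusted p = 0.000869), and -1.33 against mock (0.00351). It was the 1 call among 24 genes matched by ADAM or ADAMTS names, which include ADAMTS-like genes such as ADAMTSL1 and are not all proteases. ADAM19 passed in 9 of the 9 fits that left out an array (highest adjusted p = 0.0156). DSG2, a desmosomal cadherin, read 8.76, 8.79 and 8.84 in the negative control and 7.76, 8.16 and 8.31 with the mimic, a log2 change of -0.72 ± 0.12 (adjusted p = 0.0409), the 1 call among 67 junction genes. ENPP1, an ectoenzyme that hydrolyses extracellular ATP and the immune messenger cGAMP, read 8.62, 8.65 and 8.65 in the negative control and 7.73, 8.01 and 8.07 with the mimic, a log2 change of -0.70 ± 0.09 (adjusted p = 0.0176). CD109, a membrane-anchored co-receptor that dampens TGF-beta signalling, read 6.87, 7.04 and 6.96 in the negative control and 6.12, 6.34 and 6.46 with the mimic, a log2 change of -0.65 ± 0.11 (adjusted p = 0.0401). The call rests on 1 probeset: with the mean of all probesets of the gene the change was -0.29 (adjusted p = 0.181). In ADAM19, DSG2, ENPP1 and CD109 the mimic arrays did not overlap those of the negative control. STOM, a membrane scaffold of lipid rafts, read 9.72, 9.86 and 9.70 in the negative control and 9.13, 9.08 and 9.12 with the mimic, a log2 change of -0.65 ± 0.09 (adjusted p = 0.0197). EFEMP1, the matrix protein fibulin-3, read 10.88, 10.79 and 10.79 in the negative control and 10.29, 10.33 and 10.27 with the mimic, a log2 change of -0.52 ± 0.09 (adjusted p = 0.0396). LIMCH1, an activator of non-muscle myosin, read 6.46, 6.25 and 6.41 in the negative control and 5.64, 5.60 and 5.59 with the mimic, a log2 change of -0.76 ± 0.07 (adjusted p = 0.00524), the 1 call among 68 actin and myosin genes. Against mock ENPP1 (-0.65, adjusted p = 0.0357) and LIMCH1 (-0.50, 0.0359) passed as well. DSG2 (-0.64, 0.0905), CD109 (-0.45, 0.171), STOM (-0.39, 0.15) and EFEMP1 (-0.36, 0.168) did not pass against mock.

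Smaller falls in the same group were CD44, the hyaluronan receptor (-0.41), NCAM2, an immunoglobulin-family adhesion molecule (-0.48), and CAST, the inhibitor of calpain proteases (-0.46). Against mock CAST passed (-0.44, adjusted p = 0.0494), and CD44 (-0.33, 0.127) and NCAM2 (-0.21, 0.364) did not. CD44 was the 1 of 13 mesenchymal genes that passed, and it passed in 0 of the 9 fits without 1 array. A pair of surface and matrix genes rose. GPC6, a cell-surface heparan sulfate proteoglycan, read 8.96, 8.78 and 8.87 in the negative control and 9.48, 9.38 and 9.29 with the mimic, a log2 change of 0.51 ± 0.08 (adjusted p = 0.0314) and 0.51 against mock (0.0406). THBS3, a matrix thrombospondin, rose by 0.48. With EFEMP1, the 47 genes of the matrix and integrin list, which also holds integrin-binding proteins such as ITGB1BP1, gave 1 rise and 1 fall. Neither the 47 keratins (6 with an unadjusted p under 0.05) nor the 24 matrix metalloproteinases and inhibitors (3) held a call, and the nearest were KRT27 at 0.36 (adjusted p = 0.158) and MMP15 at -0.63 (0.0509). LIMCH1 passed in 9 of the 9 fits without 1 array, ENPP1 in 5, STOM in 2, DSG2 in 1, CD109 in 2, EFEMP1 in 2 and GPC6 in 1.

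The next genes act at cell membranes, in lysosomes and endosomes or in the secretory pathway. MMD, a membrane protein of the adiponectin receptor family that is named for macrophage differentiation, read 6.98, 6.94 and 7.02 in the negative control and 6.04, 5.88 and 5.86 with the mimic, a log2 change of -1.05 ± 0.09 (adjusted p = 0.00272). The negative control stood 0.46 above mock for MMD, and the log2 change of the mimic against mock was -0.60 (0.0357). SLC49A4, a transporter of the lysosomal membrane, read 8.46, 8.40 and 8.44 in the negative control and 7.40, 7.58 and 7.51 with the mimic, a log2 change of -0.94 ± 0.09 (adjusted p = 0.00515). BLOC1S6, a subunit of the BLOC-1 complex that builds lysosome-related organelles, read 7.70, 7.69 and 7.69 in the negative control and 6.62, 6.87 and 6.89 with the mimic, a log2 change of -0.90 ± 0.11 (adjusted p = 0.0172), with 12 genes of the BLOC and AP-3 complexes measured and no other called. VPS25, a subunit of the ESCRT-II complex that sorts ubiquitinated cargo, read 9.54, 9.93 and 9.92 in the negative control and 8.95, 8.90 and 9.21 with the mimic, a log2 change of -0.78 ± 0.13 (adjusted p = 0.039), the 1 call among 28 ESCRT genes. In each of these the lowest negative control array lay above the highest mimic array. ARSG, a lysosomal sulfatase, read 7.02, 7.10 and 6.94 in the negative control and 6.23, 6.58 and 6.30 with the mimic, a log2 change of -0.65 ± 0.09 (adjusted p = 0.0246). In mock the deposited table holds an identical value of ARSG on all 3 arrays, so the spread there is estimated as 0. Such identical values on all 3 arrays of a group occurred in 822 of the 14884 genes, and ARSG was the only called gene among them. Their effect on the shared estimate of the spread was not tested. STX12, an endosomal fusion protein of the SNARE family, rose, with 5.93, 5.86 and 6.05 in the negative control and 6.41, 6.51 and 6.63 with the mimic, a log2 change of 0.57 ± 0.09 (adjusted p = 0.0348). Against mock the change of STX12, 0.39, did not pass (0.158). No gene passed among 32 Rab GTPases and regulators (nearest TBC1D31, -0.43, adjusted p = 0.149) or 32 lysosomal genes of a separate list (CTSL, -0.43, 0.107), with 6 and 8 at an unadjusted p under 0.05.

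Within the endoplasmic reticulum DDOST, a subunit of the oligosaccharyltransferase that attaches N-glycans, read 7.94, 7.81 and 7.86 in the negative control and 7.26, 7.35 and 7.22 with the mimic, a log2 change of -0.59 ± 0.07 (adjusted p = 0.0118) and -0.56 against mock (0.0224). It was the 1 call among 20 N-glycosylation genes. TMTC1, which adds mannose to cadherins, read 9.14, 9.03 and 9.16 in the negative control and 8.52, 8.49 and 8.71 with the mimic, a log2 change of -0.54 ± 0.08 (adjusted p = 0.0316). None of 21 chaperone and unfolded protein response genes passed (7 with an unadjusted p under 0.05), and XBP1 had the lowest p at 0.38 (adjusted p = 0.0793). MMD and SLC49A4 passed in 9 and 9 of the 9 fits without 1 array, DDOST in 5, BLOC1S6 in 4, ARSG in 2, TMTC1 in 3, VPS25 in 2 and STX12 in 1.

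Ubiquitin pathway genes changed in both directions: of 357 measured, 3 fell and 2 rose (1.4% called). USP13, a deubiquitinase, read 7.70, 7.72 and 7.60 in the negative control and 6.85, 7.14 and 6.99 with the mimic, a log2 change of -0.68 ± 0.09 (adjusted p = 0.0192). KLHL12, the adaptor through which CUL3 ubiquitinates the coat protein of large secretory vesicles, read 7.84, 8.03 and 7.87 in the negative control and 7.24, 7.40 and 7.41 with the mimic, a log2 change of -0.56 ± 0.09 (adjusted p = 0.0382). KCTD20, a BTB-domain protein, read 7.39, 7.14 and 7.14 in the negative control and 6.44, 6.46 and 6.55 with the mimic, a log2 change of -0.74 ± 0.10 (adjusted p = 0.0196). The rises were USP21, a deubiquitinase (0.38, passing in 0 of the 9 fits without 1 array), and FBXO33, a substrate receptor of SCF ligases (0.46). Outside the list, LONRF2, a RING-finger protein, read 7.99, 7.90 and 8.06 in the negative control and 8.60, 8.41 and 8.57 with the mimic, a log2 change of 0.54 ± 0.09 (adjusted p = 0.0379), and DCAF6, a substrate receptor of CUL4 ligases, fell by 0.46. Against mock the change of LONRF2, 0.31, did not pass (0.239). USP13 passed in 4 of the 9 fits without 1 array, KCTD20 in 2, KLHL12 in 1 and LONRF2 in 1.

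Among transcription and chromatin genes, ZNF25, a KRAB zinc finger protein, read 7.15, 7.24 and 6.93 in the negative control and 5.79, 6.03 and 6.13 with the mimic, a log2 change of -1.13 ± 0.16 (adjusted p = 0.02). Mock lay lower than the negative control for ZNF25, at 6.67, 6.31 and 6.93, and the log2 change of the mimic against mock, -0.66, did not pass (0.169). It was the 1 call among 467 ZNF genes, 0.214% of them. ZHX2, a homeobox and zinc finger repressor, read 7.58, 7.50 and 7.62 in the negative control and 6.82, 6.98 and 6.76 with the mimic, a log2 change of -0.71 ± 0.09 (adjusted p = 0.0172). ZFP90, another KRAB zinc finger protein, read 8.52, 8.58 and 8.62 in the negative control and 7.82, 8.16 and 8.07 with the mimic, a log2 change of -0.56 ± 0.10 (adjusted p = 0.0475). Neither overlapped between the groups. STAG2, a subunit of the cohesin ring, rose, with 8.18, 8.26 and 8.37 in the negative control and 8.76, 8.75 and 8.81 with the mimic, a log2 change of 0.50 ± 0.07 (adjusted p = 0.0194). Against mock the change of STAG2, 0.28, did not pass (0.174). SBNO1, a helicase-family co-regulator, read 8.89, 9.03 and 9.17 in the negative control and 9.53, 9.47 and 9.60 with the mimic, a log2 change of 0.50 ± 0.09 (adjusted p = 0.0459), but only 0.22 against mock (0.421). Smaller falls were WT1, a zinc finger factor of kidney and gonad development (-0.48), EN2, a homeobox factor (-0.38), PEG10, an imprinted gene derived from a retrotransposon (-0.48), FLYWCH2 (-0.39) and GLE1, an mRNA export factor (-0.46). EN2 is dim and passed in only 4 of the 18 alternative fits that tested it. Its change against mock was -0.14 (adjusted p = 0.507). None of 133 chromatin modifiers, 40 forkhead factors or 27 HOX genes passed in limma, with 20, 4 and 1 at an unadjusted p under 0.05. The nearest were CBX6 at -0.38 (adjusted p = 0.0509), FOXI3 at -0.44 (0.196) and HOXC9 at 0.27 (0.286).

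CEP20, a centrosomal protein needed for cilium assembly, read 9.41, 9.38 and 9.46 in the negative control and 8.45, 8.58 and 8.33 with the mimic, a log2 change of -0.96 ± 0.09 (adjusted p = 0.00515) and -0.80 against mock (0.0212). It was the 1 call among 91 genes of the centrosome and cilium list, which was matched by gene name and also holds SASH1. CABCOCO1, a ciliary protein outside that list, fell by 0.45. Its probeset is dim, with means of 4.97 in the negative control and 4.52 with the mimic. LRRC57, a leucine-rich repeat protein, read 7.02, 6.73 and 6.83 in the negative control and 6.17, 6.30 and 6.20 with the mimic, a log2 change of -0.64 ± 0.11 (adjusted p = 0.0409). LACC1, an enzyme of purine nucleosides best known from macrophages, fell by 0.49. CEP20 passed in 9 of the 9 fits without 1 array, ZHX2 in 4, STAG2 in 2, ZNF25 in 2, ZFP90 in 1, SBNO1 in 1 and LRRC57 in 2.

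**Figure D4:**
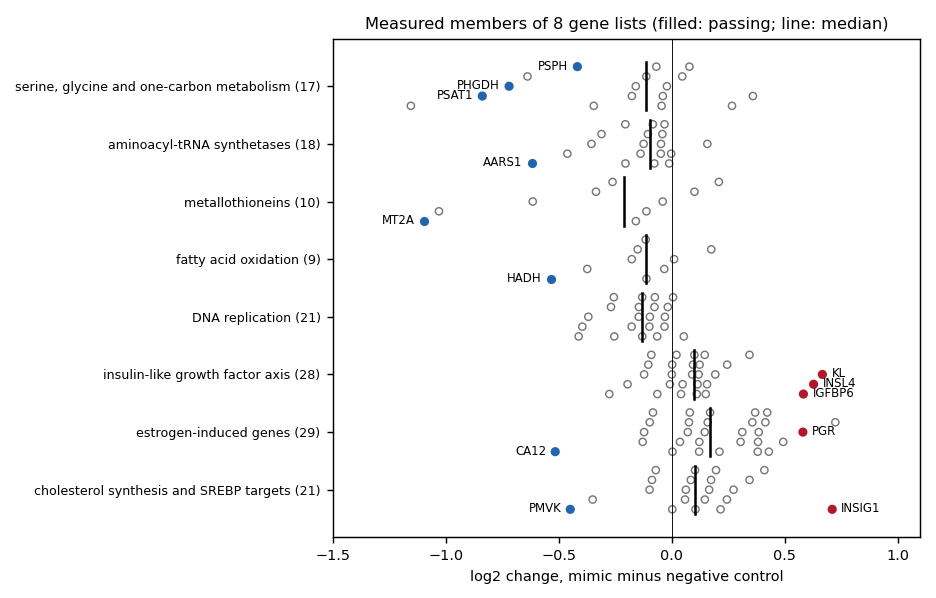
Each circle is a measured member of 1 of 8 gene lists (number measured in brackets), placed at its log2 change, mimic minus negative control, on the horizontal axis. Filled circles passed, open circles did not, black lines are list medians, and vertical offsets only separate points; medians lie below 0 in the upper 5 lists and above 0 in the lower 3.

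Non-coding genes gave 9 calls. MIR4739 had the largest rise of all, from 4.04, 4.23 and 3.90 to 4.94, 5.50 and 5.31, a log2 change of 1.19 ± 0.14 (adjusted p = 0.0114), but its probeset is dim, mock lay between the groups at 4.45, 4.51 and 4.51, and it did not pass against mock (0.0714). MIR548F2 read 4.05, 4.49 and 4.39 in the negative control and 4.98, 5.22 and 5.43 with the mimic, a log2 change of 0.90 ± 0.15 (adjusted p = 0.0396), and is dim as well. MIR23B, whose mature arms are shown above, read 6.92, 6.71 and 6.81 in the negative control and 7.28, 7.34 and 7.24 with the mimic, a log2 change of 0.47 ± 0.07 (adjusted p = 0.0316) and 0.58 against mock (0.0224). Its genomic neighbour MIR27B, chosen after its value was seen, stood at 0.47 (adjusted p = 0.0594), MIR24-1 of the same cluster at -0.10 (0.736), and their host gene AOPEP at 0.36 (0.233), none of which passed. MIR604 rose by 0.48 and MIR3150B fell by 0.47. The sources used here do not say whether such probesets read the mature RNA, its precursor or the host transcript.

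LINC00052, a long non-coding RNA, had the second largest fall, from 7.73, 7.50 and 7.76 to 6.15, 6.56 and 6.77, a log2 change of -1.17 ± 0.17 (adjusted p = 0.0277) and -0.85 against mock (0.109). CYTOR, a cytoskeleton-regulating long non-coding RNA, fell by 0.44, with mock between the groups. With the mean of all probesets of the gene its change was -0.27 (adjusted p = 0.144), and it passed in 1 of the 9 fits without 1 array. PDCD4-AS1, transcribed antisense to the translation inhibitor gene PDCD4, read 6.09, 6.04 and 6.27 in the negative control and 6.80, 6.91 and 6.79 with the mimic, a log2 change of 0.70 ± 0.10 (adjusted p = 0.0246), while PDCD4 itself stood at 0.02 (0.974). The fourth call is an antisense transcript of the Y chromosome, whose level is not given. Over classes, 4 of 1072 microRNA genes rose and 1 fell, and 2 of 1398 long non-coding RNAs rose and 2 fell. MIR4739 passed in 7 of the fits that left out an array, LINC00052 in 3, PDCD4-AS1 in 3, MIR23B in 1, MIR548F2 in 1 and MIR604 in 1.

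Genes reported as targets of miR-150-5p were not among the calls. Of 16 measured, 0 passed in limma, 1 had an unadjusted p under 0.05, and 12 had negative values, with a median of -0.06. ADIPOR2, an adiponectin receptor of the same family as MMD, was closest, at 7.75, 7.85 and 7.98 in the negative control and 7.27, 7.09 and 7.10 with the mimic, a log2 change of -0.71 ± 0.14 (adjusted p = 0.0543). ZEB1 stood at -0.16, NOTCH3 at -0.08 and MYB at -0.13, with mimic and negative control arrays overlapping in all 3. The genes nearest to the threshold over the whole table were HIVEP2 at -0.51 (adjusted p = 0.0505), MIR1537 at 0.43 (0.0509), SSTR2, a somatostatin receptor, at 0.87 (0.0509), MPPED2 at 0.52 (0.0509) and LUC7L at 0.44 (0.0509).

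How far a call depends on 1 array was measured by leaving out each of the 9 in turn. The number of genes passing was 7 without mimic replicate 1, 14 without mimic replicate 2 and 31 without mimic replicate 3. It was 11, 10 and 10 without negative control replicates 1, 2 and 3. The mock arrays enter through the shared estimate of the spread, and the number was 29, 39 and 121 without mock replicates 1, 2 and 3. Only 5 genes passed in all 9 of these fits: ADAM19, MMD, CEP20, SLC49A4 and LIMCH1, all of them falls, and 4 of the 82 (CA12, CD44, PLPBP and USP21) passed in none. Log2 changes kept their sign for all 82 genes in every one of 19 alternative fits that tested them. Leaving out 1 array could not reverse a sign, because mimic and negative control arrays do not overlap in any called gene. The kept signs are therefore no measure of stability. The negative control against mock gave 0 genes at the same threshold (622 with an unadjusted p under 0.05), and the mimic against mock gave 45, 25 higher and 20 lower, with the same 3 mimic arrays. A called gene given above without a change against mock did not necessarily pass there.

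**Figure D5:**
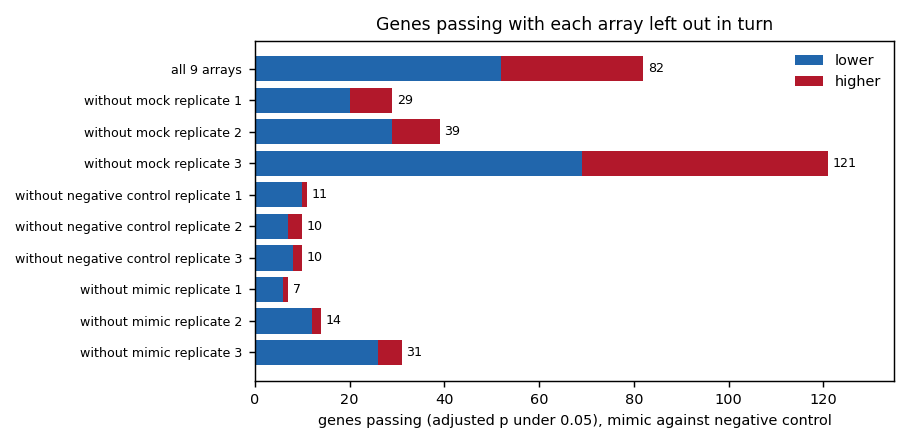
Bars give the number of genes passing in mimic against negative control (horizontal axis), blue for lower and red for higher, with all 9 arrays and with each array left out in turn. The total runs from 7 without mimic replicate 1 to 121 without mock replicate 3, against 82 with all arrays.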

How the data were processed

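The deposited table holds 1 log2 value per probeset and array, which the authors made with RMA, per the submitters' processing notes. RMA as a method corrects background, gives all arrays a common distribution and summarises probes, so a shift of most genes together would not be seen. The RMA version, genome build and probe annotation used were not given in the sources used here. Probesets were named through the platform's annotation (16098 of 53617 with 1 symbol, none with several, 37519 without). The probeset with the highest mean over the 9 arrays stood for each of 14884 genes, and 779 genes had several. The log2 values were fitted with limma 3.58.1 (lmFit, eBayes; R 4.3.3) with 1 mean for each of the 3 groups over all 9 arrays (6 residual degrees of freedom). P-values are two-sided and adjusted by the Benjamini-Hochberg method over all 14884 genes. An exact permutation test of 3 against 3 cannot go below p = 0.1 and was not used. Analysis code was tested on simulated data.

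The lists and members were chosen with earlier results of these data known. Some lists were matched by gene name, so some of their members fall outside the label. Every called gene is accounted for. Values by array are given for called protein-coding genes that changed by at least 0.5 with a higher-group mean above the median of all genes (5.44), and for further genes of a described pathway. In each list described the called members are named, or the one with the lowest p, along with the 5 genes nearest to the threshold; other names were chosen after their values were seen. Of 87 lists, 39 held a called gene and 29 called genes were in none. In 4 lists, 3 of them of transporters, no member had a named probeset. Whether unnamed probesets read the missing members of these and other lists is not known here. Array medians lay between 4.22 and 4.27. Alternatives covered normalization, filter, probesets, arrays, prior variance, replicate block and leaving out each array.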

Additional observations from a re-analysis of the deposited data

Results flagged for a closer look

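The calls of the report rest on named probesets, and 37519 of the 53617 probesets have no gene name here. When all 53617 were fitted together, an analysis added after seeing the data, 6 passed: 5 named ones and 1 unnamed one. The unnamed probeset has no gene name in the table used here, and which transcript it reads is not known here. It read 7.12, 7.17 and 7.00 in the negative control, 7.25, 7.00 and 7.27 in mock and 4.98, 5.44 and 5.26 with the mimic, a log2 change of -1.87 ± 0.13 (SE, n = 3 per group, limma adjusted p = 0.00731). The 3 mimic arrays lay below all 6 control arrays, and the change was larger than that of any named gene that passed. No unnamed probeset passed between negative control and mock in the same limma fit, where 1563 had an unadjusted p under 0.05. Groups of 3 arrays are too small for a test of single outlying arrays, so none was run.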

How the results depend on the processing

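The number of genes passing depended strongly on the settings. No called gene changed sign, but most of the settings leave the log2 change itself unaltered or could not reverse it. More genes passed under 6 settings, and the cause was not tested: 262 (111 higher, 151 lower) with only genes whose highest group mean was above the median, 181 (84 and 97) with an intensity trend in the prior variance, 268 (115 and 153) with array weights, 112 (50 and 62) with median centring, 109 (39 and 70) with quantile normalization again and 121 (52 and 69) without mock replicate 3. Fitting the 6 arrays alone, with fewer residual degrees of freedom, gave 8 (1 and 7), and all probesets together, with more tests, gave 6 (0 and 6). Leaving out 1 array gave between 7 and 121 genes, 1 to 52 higher and 6 to 69 lower. The remaining alternatives (the mean of all probesets of a gene, every named probeset on its own, a robust prior variance) stayed within 1.5 times the count of 82. They kept 79, 75 and 75 of the 82 calls, in that order. CD109 and CYTOR were among the calls lost with the mean of all probesets, and their changes shrank by over 1.5 times. Of 82 genes, 5 passed in all alternatives that tested them, 42 in at least 10 of 19, and 1 in fewer than 5.

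The labels do not say whether the replicate numbers pair the samples. Same-numbered mimic and negative control arrays correlated in their deviations from the group means at 0.106, 0.027 and 0.059, low values that cannot settle it. Each array nonetheless correlated best with its own number, a hint from the data and not from the design. With the replicate number as a block the count was 16 (5 and 11), all of them among the 82. Gene list medians moved by more than the spread between arrays in 77 of 1503 comparisons. Precision is limited by 3 arrays per group, and the table holds no background or detection value, so a dim probeset cannot be told from background.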

Other observations

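Several gene groups held no gene that passed in limma, and their values are given here with no reading of them. Of 21 measured DNA replication genes (45 listed), 19 had negative changes (median -0.13, 4 with an unadjusted p under 0.05). In 9 the mimic arrays lay below the negative control arrays without overlap and in 0 above, where 16.4% of all genes were separated in one direction or the other. Relative to the negative control mean, the mean log2 level of the list was -0.22, -0.13 and -0.10 on mimic replicates 1 to 3 and -0.08, -0.08 and 0.04 on mock replicates 1 to 3, and the median change was -0.07 without mimic replicate 1. The lowest p was that of GINS1, a subunit of the replicative helicase, at -0.41 (adjusted p = 0.0781). MCM10, another helicase factor, stood at -0.40 (0.136), and RRM2, the small subunit of ribonucleotide reductase, at -0.37 (0.139). Of 41 DNA repair and checkpoint genes, 33 were negative (median -0.07, 9 with an unadjusted p under 0.05), with UNG, a uracil glycosylase, at -0.29 (0.169). That list's mean level was -0.19, -0.06 and -0.01 on the mimic arrays and -0.07, -0.12 and 0.01 on the mock arrays, which overlap, and the median change was -0.03 without mimic replicate 1.

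Of 74 mitochondrial ribosomal protein genes, 53 were negative (median -0.05, 10 with an unadjusted p under 0.05, lowest for MRPL4 at -0.47, adjusted p = 0.0681). Relative to the negative control mean, their mean log2 level was -0.11, -0.04 and -0.03 on mimic replicates 1 to 3 and -0.06, -0.06 and -0.07 on mock, the median change was -0.02 without mimic replicate 1, and the median against mock was 0.01. Of 55 cytosolic ribosomal protein genes, 39 were positive (median 0.05, 0 with an unadjusted p under 0.05, lowest for RPL34 at 0.19, adjusted p = 0.433). Of 32 interferon response genes, which foreign RNA can induce, 24 were negative (median -0.05), and USP18, a brake on interferon signalling, stood at -0.74 (adjusted p = 0.0831, 6 members with an unadjusted p under 0.05). Of 18 genes of the microRNA silencing machinery, 2 had an unadjusted p under 0.05, with TNRC6A, a partner of Argonaute, lowest at 0.35 (adjusted p = 0.0509).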
